A study of Mus musculus with 8 samples.

Results

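The genes described here encode the proteins that form and dissolve blood clots. They are 37 genes, picked by name from both count tables and matched between them by Ensembl ID, out of 48286 gene IDs that the tables share. The livers came from male wild-type C57BL/6J mice, 8 to 9 weeks old, in 4 groups of 2, and were taken 24 h after dosing. Thioacetamide (TAA), a liver toxin, went into the peritoneum of fed mice at 200 mg/kg, with PBS-treated fed mice as controls. Acetaminophen (APAP), which injures the liver in overdose, went into the stomach at 500 mg/kg after an overnight fast that was kept up for a further 6 h, and fasted mice that received PBS were the controls. TAA and APAP therefore differ in agent, route, feeding and count table together, and these cannot be told apart. The labels do not say that replicates with the same number belong together. Nor do they say that each library is a separate mouse, so p-values measure the spread between these libraries.

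Most clotting factors circulate as inactive proteases made by hepatocytes. Tissue factor starts the cascade when blood meets cells that carry it, the cascade ends in thrombin, thrombin turns fibrinogen into fibrin, and factor XIII crosslinks the fibrin. Antithrombin and the protein C system, also largely liver products, hold thrombin in check, and plasmin, cut from plasminogen by the activators of fibrinolysis, digests fibrin. Because the liver is the main source of these proteins, clotting time is a standard measure of liver failure in patients. Fibrinogen differs from most factors in being an acute phase protein, whose genes respond to interleukin-6. Endothelial cells and macrophages, not hepatocytes, are the usual sources of thrombomodulin, von Willebrand factor, factor VIII and the A chain of factor XIII.

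The 3 fibrinogen genes rose in both models, and 16 of the 37 genes fell in both. A gene was called at an adjusted p under 0.05 in edgeR's quasi-likelihood test over all genes, with Benjamini-Hochberg adjustment. All 37 genes passed the filter on low counts in each comparison. TAA raised 7 of them and lowered 16 against PBS livers, where 12.1% of 16847 tested genes rose and 13.8% fell (25.8% in either direction). APAP raised 10 and lowered 22 against fasted PBS livers, where 28.6% of 14794 tested genes rose and 27.5% fell (56.2% in either direction). The median log2 fold change of the 37 was -0.68 after TAA and -0.73 after APAP, beside medians of 0.03 and 0.04 over all genes tested. In these bulk samples, fewer cells of a type and less RNA per cell cannot be told apart.

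The depth in named genes ran from 35711238 to 41453751 counts in the PBS and TAA livers and from 22320118 to 27110041 counts in the fasted livers. Levels are given as CPM, the counts of a gene relative to the total count of its library, after TMM scaling within each table. Hepatocyte markers summed to between 95489 and 126023 CPM in PBS livers and 67400 and 107411 CPM after TAA, and to between 132396 and 150775 CPM in fasted PBS livers and 89080 and 104094 CPM after APAP. Of 13 hepatocyte markers, 5 were lower after TAA (13.8% over all genes) and 10 lower after APAP (27.5% over all genes). All 13 had counts in every liver. Their part in the fall of the liver-made clotting genes was not tested.

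**Figure D1:**
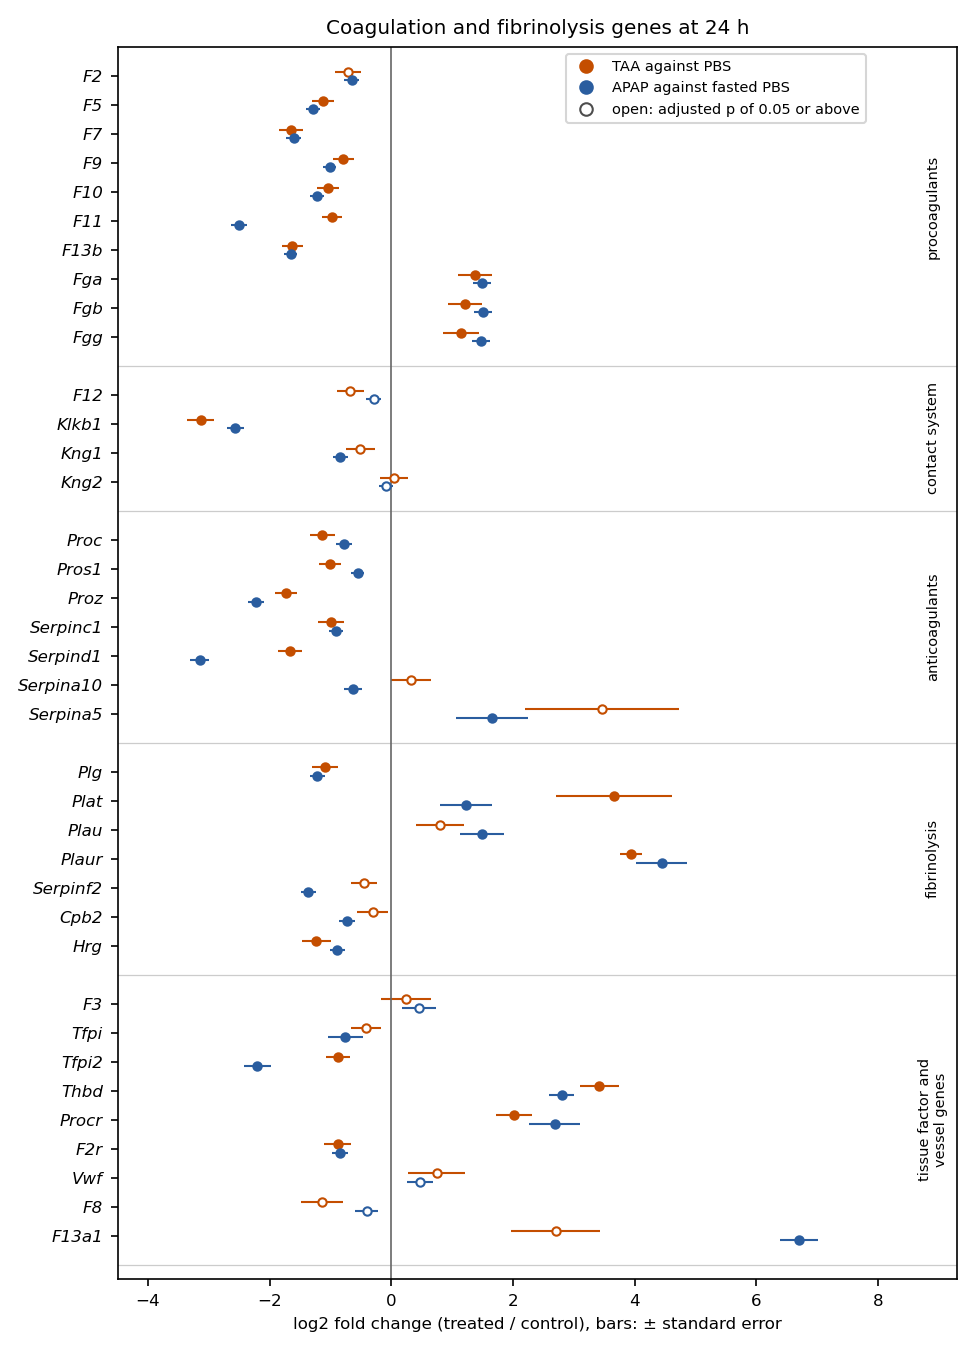
Log2 fold change of each of the 37 genes after TAA (orange, against PBS) and after APAP (blue, against fasted PBS), with bars of 1 approximate standard error, sorted by role. The 3 fibrinogen genes stand to the right of 0 in both models while the other 7 procoagulants stand to the left.

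Among the regulatory sequences, those of the fibrinogen genes are shown first, since the 3 genes lie side by side and were the procoagulant genes that rose. Fgg, Fga and Fgb, which encode the gamma, alpha and beta chains, occupy chr3:83007724-83049863 (GRCm38), a stretch of 42.1 kb with 0 other protein-coding genes between them. The sequences are RefSeq's (GRCm38.p6) and run 5′ to 3′ towards the start site on the strand of the gene. Capitals mark CTGGGAA, a short form of the interleukin-6 response element of acute phase genes, on either strand. The windows are chr3:83007474-83007723 (plus strand) for Fgg, chr3:83025903-83026075 (plus strand) for Fga and chr3:83049864-83050113 (minus strand) for Fgb.
Fgg: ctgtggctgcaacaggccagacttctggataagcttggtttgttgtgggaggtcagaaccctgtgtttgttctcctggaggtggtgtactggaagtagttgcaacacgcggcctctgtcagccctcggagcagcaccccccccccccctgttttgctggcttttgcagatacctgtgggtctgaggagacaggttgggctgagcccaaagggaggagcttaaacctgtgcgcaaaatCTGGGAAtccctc
Fga: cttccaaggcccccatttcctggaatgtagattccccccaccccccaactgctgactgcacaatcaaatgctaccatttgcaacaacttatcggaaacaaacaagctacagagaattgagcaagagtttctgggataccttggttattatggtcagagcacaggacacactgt
Fgb: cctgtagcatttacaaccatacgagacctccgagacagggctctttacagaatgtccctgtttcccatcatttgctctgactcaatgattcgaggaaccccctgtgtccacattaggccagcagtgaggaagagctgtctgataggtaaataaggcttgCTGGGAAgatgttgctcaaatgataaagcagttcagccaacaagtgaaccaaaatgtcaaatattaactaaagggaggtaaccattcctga
The motif began 13 bases before the start site of Fgg and 91 bases before that of Fgb, and the Fga window did not hold these letters.

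Of the 37 genes, 29 had a promoter in the RefSeq table, and the 250 bases before each start site were searched on both strands. CTGGGAA was found for 5 of the 29 (17.2%), beside 9.1% of all 32851 promoters of that length in the table. The 5 were Fgg, Fgb, F9, Tfpi and Tfpi2. Of these, Fgg and Fgb rose in both models, F9 and Tfpi2 fell in both, and Tfpi fell after APAP alone. GTTAAT, a core of the site of HNF1, a factor of hepatocyte genes, was found for 5 of the 29 (17.2%), beside 6.43% of all promoters. TGANTCA, the site of AP-1, a factor of the stress response, was found for 8 of the 29 (27.6%), beside 6.75% of all promoters. TTNCNNAA, a loose C/EBP site, was found for 15 (51.7%, beside 36.8%), TATAAA for 2 (6.9%, beside 12.4%) and CAAAGTCCA, an HNF4 site, for 0 (beside 0.384%). Some genes have several start sites in the table and were counted if any window matched, whereas the share of all promoters counts each window, so the shares are a description only.

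The fibrinogen genes were the most abundant of the 37 in every group. In reads per kilobase of exon and depth-scaled library (RPKM), Fgg stood at 1746 ± 93.6 (SD, n = 2) in PBS livers and 1880 ± 238 (SD, n = 2) in fasted PBS livers, above Fga and Fgb. Next in order in PBS livers came Kng1 with 814 ± 14.1 RPKM (SD, n = 2), Plg with 781 ± 62.5 RPKM (SD, n = 2) and Hrg with 602 ± 43.2 RPKM (SD, n = 2). Kng1 and Plg did not differ beyond their spread. At the other end, Vwf stood at 0.152 ± 0.0686 RPKM (SD, n = 2) there, with Serpina5 and Plat below it.

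Fga had 4201 and 4512 CPM in PBS livers against 13419 and 9287 CPM after TAA. It had 4394 and 4943 CPM in the fasted PBS livers and 12043 and 14345 CPM after APAP. Both treated livers stood above both controls in each model. The log2 fold change was 1.38 (standard error 0.28, adjusted p = 0.0217), or 2.61-fold, after TAA and 1.50 (standard error 0.15, adjusted p = 2.1e-05), or 2.83-fold, after APAP. Fgb rose by 1.21 (standard error 0.27, adjusted p = 0.0286) and by 1.51 (standard error 0.15, adjusted p = 2.4e-05) on the log2 scale. Fgg rose by 1.15 (standard error 0.30, adjusted p = 0.0403) and by 1.48 (standard error 0.15, adjusted p = 2.2e-05). In all 3 genes TAA replicate 1 was higher than TAA replicate 2, with 12936 against 9194 CPM in Fgb and 9891 against 6337 CPM in Fgg.

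The 3 chains moved in near proportion. The ratio of Fga to Fgb counts lay between 0.908 and 1.09 in all 8 livers, and that of Fgg to Fgb between 0.689 and 0.888. Together the 3 genes took 1.18% and 1.19% of all counts in PBS livers against 3.97% and 2.61% after TAA. They took 1.09% and 1.39% in the fasted PBS livers and 3.67% and 4.24% after APAP. The 22 other genes grouped as made by hepatocytes, among them the scarce Serpina5, took 1.57% and 1.58% in PBS livers against 1.09% and 0.940% after TAA. In the fasted PBS livers these 22 took 1.31% and 1.37%, and after APAP 0.764% and 0.760%. No p is given for these shares, since an exact permutation test of 2 against 2 livers has few arrangements and cannot pass the threshold.

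Of the 10 procoagulants, 3 were higher and 6 lower after TAA (12.1% and 13.8% over all genes). After APAP, 3 were higher and 7 lower (28.6% and 27.5% over all genes). The 7 other than the fibrinogen genes were called lower in both models, with the exception of F2 after TAA. F7, the protease that works with tissue factor, had 113 and 143 CPM in PBS livers and 45.2 and 36.3 CPM after TAA, and 82.1 and 85.0 CPM in fasted PBS livers against 30.1 and 24.8 CPM after APAP. The groups did not overlap, and the log2 fold changes were -1.65 (standard error 0.20, adjusted p = 0.00600) and -1.61 (standard error 0.12, adjusted p = 3.6e-06). F13b, the carrier subunit of factor XIII, fell by 1.62 (adjusted p = 0.00515) and by 1.65 (adjusted p = 1.5e-06) on the log2 scale, about 3.08-fold and 3.14-fold. F5, the cofactor of activated factor X, fell by 1.12 and by 1.29, and F10, the protease that cuts prothrombin, by 1.04 and by 1.22. F9, the protease missing in haemophilia B, fell by 0.79 (adjusted p = 0.0262) after TAA and by 1.01 (adjusted p = 3.2e-05) after APAP. F2, which encodes prothrombin, had 1802 and 2081 CPM in PBS livers and 1127 and 1240 CPM after TAA, a log2 fold change of -0.71 that missed the threshold (adjusted p = 0.0594), and it fell by 0.65 after APAP (adjusted p = 0.00139).

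F11, a protease that amplifies the cascade once thrombin is formed, fell further after APAP than after TAA. It had 114 and 129.5 CPM in PBS livers and 67.9 and 56.0 CPM after TAA, against 132 and 106 CPM in fasted PBS livers and 21.7 and 20.4 CPM after APAP. That is 1.96-fold lower after TAA (adjusted p = 0.0144) and 5.66-fold lower after APAP (adjusted p = 4.5e-07). In the fit of all 8 livers the 2 effects differed by 1.50 on the log2 scale (standard error 0.22, adjusted p = 0.00522), and this difference passed the threshold whichever liver was left out. Of the 9 calls among procoagulants after TAA, 2 held without PBS replicate 1 (F7 and F13b) and 1 without PBS replicate 2 (F13b). Without these the adjusted p of Fga was 0.152 and 0.149, that of Fgb 0.181 and 0.171, and that of Fgg 0.213 and 0.202. With TAA replicate 1 left out, Fgg was also no longer called (adjusted p = 0.0709), and with TAA replicate 2 left out, F9 was not (adjusted p = 0.0670). All 10 calls after APAP held whichever liver was left out.

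**Figure D2:**
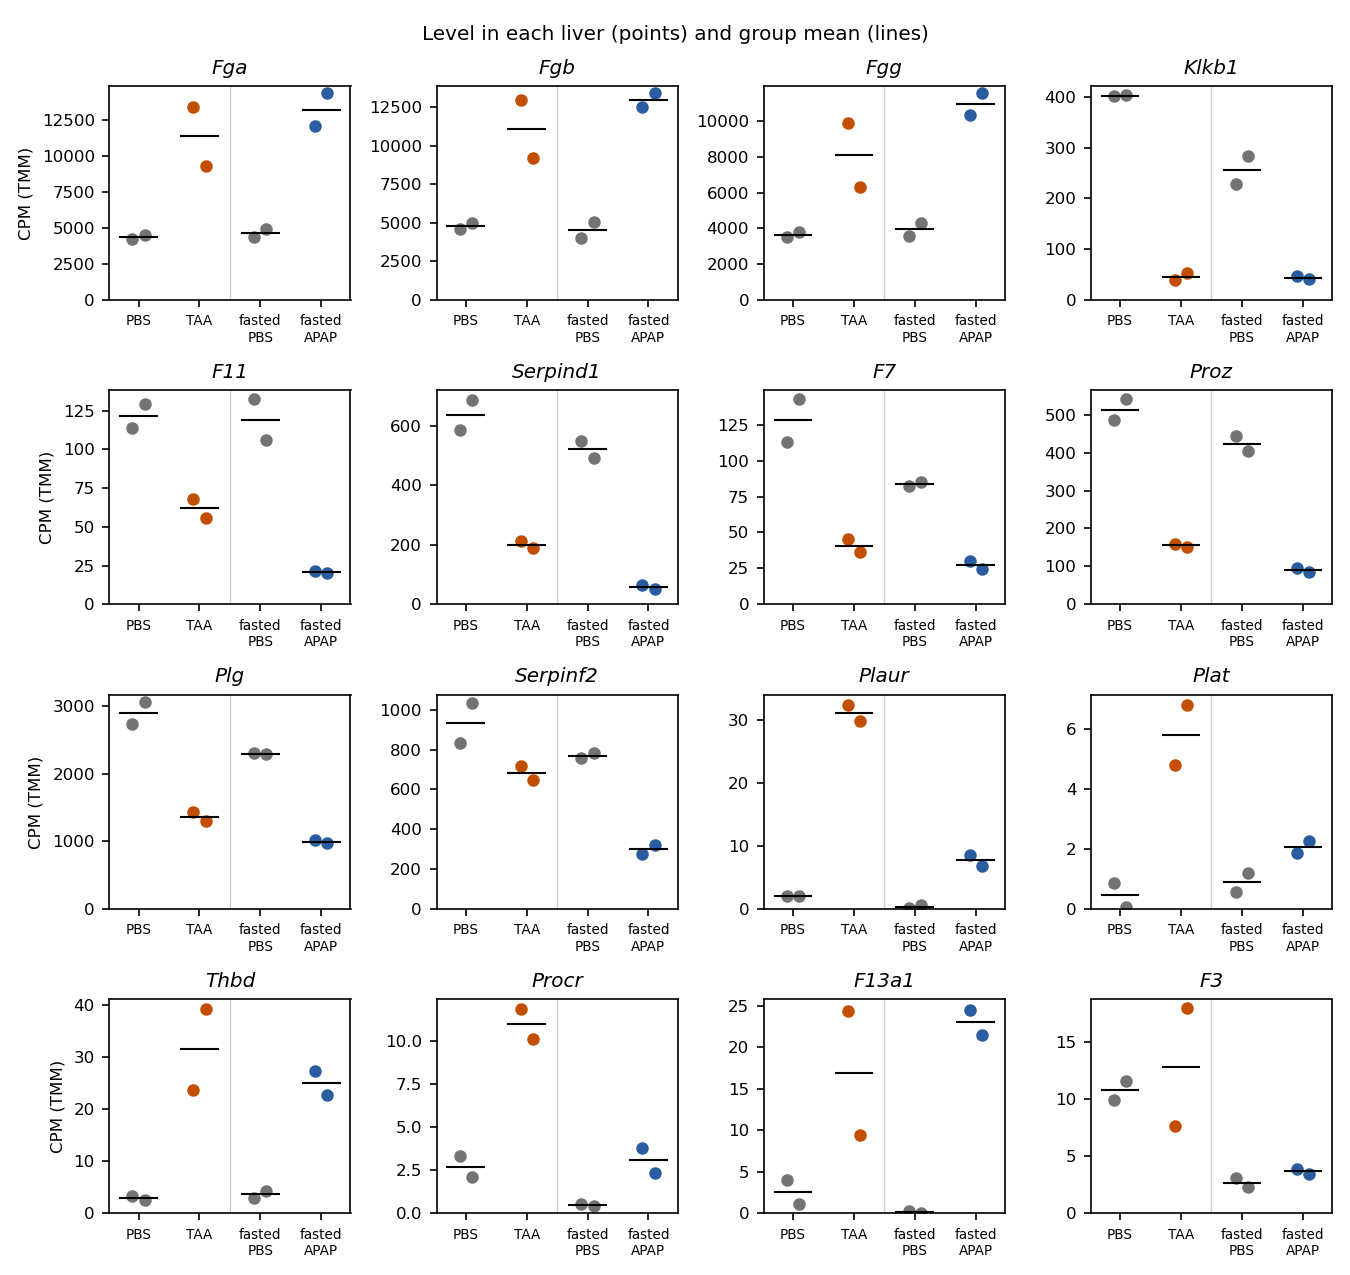
TMM-scaled CPM in each liver (points) and the mean of each group (lines) for 16 of the genes, with both control groups in grey and axes starting at 0. The treated livers of Fga, Fgb and Fgg stand above their controls, those of Klkb1, F11, Serpind1, F7, Proz and Plg stand below them, and in F3 the TAA livers lie on either side of the PBS livers.

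In the contact system, which starts clotting on foreign surfaces and releases bradykinin, plasma prekallikrein fell most. Its gene Klkb1 had 402 and 404 CPM in PBS livers and 38.5 and 53.4 CPM after TAA, and 229 and 285 CPM in fasted PBS livers against 46.5 and 40.3 CPM after APAP. Treated and control livers were far apart in both models, by 8.77-fold after TAA (log2 fold change -3.13, standard error 0.23, adjusted p = 0.00282) and by 5.92-fold after APAP (-2.56, standard error 0.14, adjusted p = 5.6e-07). Both calls held whichever liver was left out. The other 3 genes were not called after TAA. F12, the protease that starts the system, had log2 fold changes of -0.68 (adjusted p = 0.0744) and -0.29 (adjusted p = 0.0706).

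Klkb1 and F11 are paralogs that adjoin each other in chr8:45241174-45294859 (GRCm38, minus strand), within 53.7 kb and with 0 other protein-coding genes between them. Their counts did not move in proportion. F11 was at 0.283 and 0.321 of Klkb1 in PBS livers against 1.76 and 1.05 after TAA, whereas it was at 0.578 and 0.373 in fasted PBS livers and at 0.466 and 0.507 after APAP. The TAA livers thus stood above all 6 others in this ratio. F7, F10 and Proz form a second cluster, chr8:13026034-13076026 (plus strand, 0 other protein-coding genes between them), and all 3 fell in both models.

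The kininogens, precursors of bradykinin, form another cluster, with Hrg (chr16:22951072-23082078, 131 kb). Kng1 had a log2 fold change of -0.51 (adjusted p = 0.167) after TAA and fell by 0.84 (adjusted p = 2.9e-04) after APAP. Kng2 had 329 and 319 CPM in PBS livers against 398 and 274 CPM after TAA, and 255 and 287 CPM in fasted PBS livers against 255 and 258 CPM after APAP. Its groups overlapped in both models. Kng1 counts were 8.14 and 8.19 times those of Kng2 in PBS livers and 5.30 and 5.90 times after TAA, and 8.69 and 7.81 times in fasted PBS livers and 5.07 and 4.64 times after APAP. All 4 treated livers had a lower ratio than all 4 controls. Kng1 and Kng2 are close paralogs, so the split of shared reads between them is uncertain.

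**Figure D3:**
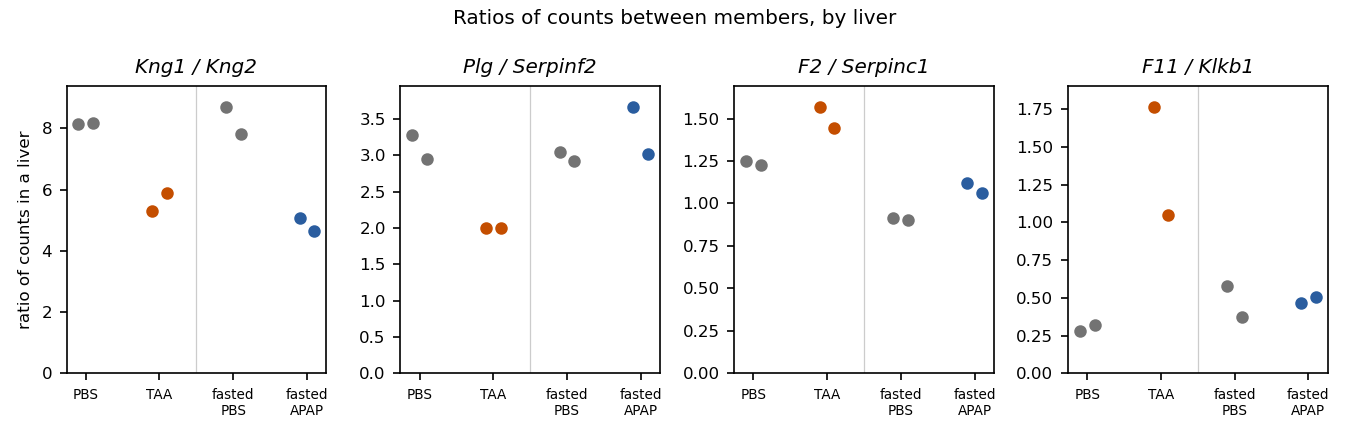
Ratio of the counts of 2 genes in each liver (points), with axes starting at 0. The ratio of Kng1 to Kng2 is lower in all treated livers, that of Plg to Serpinf2 is lower after TAA only, at 1.99 and 2.00, and that of F11 to Klkb1 is highest after TAA.

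Most of the anticoagulants grouped as made by hepatocytes fell alongside the procoagulants. Of 7 genes, 5 were lower after TAA (13.8% over all genes). After APAP, 6 were lower and 1, the scarce Serpina5, was higher (27.5% and 28.6% over all genes). The median log2 fold change was -1.01 and -0.78. Serpind1, which encodes heparin cofactor II, an inhibitor of thrombin, had 585 and 686 CPM in PBS livers and 212 and 188 CPM after TAA, and 550 and 491 CPM in fasted PBS livers against 66.3 and 51.3 CPM after APAP. It was 3.18-fold lower after TAA (adjusted p = 0.0059) and 8.86-fold lower after APAP (adjusted p = 2.7e-07), and no other gene of the 37 fell as far after APAP. The 2 effects differed by 1.45 on the log2 scale (standard error 0.25, adjusted p = 0.00898), which just missed the threshold without fasted PBS replicate 1 (adjusted p = 0.0508). Proz encodes protein Z, the cofactor by which Serpina10 inhibits activated factor X. Proz had 486 and 541 CPM in PBS livers and 160 and 150.3 CPM after TAA. It had 443 and 403 CPM in fasted PBS livers against 95.9 and 85.5 CPM after APAP. It fell by 1.73 (adjusted p = 0.00462) and by 2.22 (adjusted p = 5.8e-07).

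Proc, the vitamin K-dependent protease that inactivates factors V and VIII, fell by 1.14 (adjusted p = 0.0159) and by 0.78 (adjusted p = 6.8e-04) on the log2 scale. Its cofactor protein S, Pros1, fell by 1.01 (adjusted p = 0.0150) and by 0.55 (adjusted p = 0.00203). Serpinc1, antithrombin, had 1443 and 1693 CPM in PBS livers and 719 and 858 CPM after TAA, and 1909 and 1920 CPM in fasted PBS livers against 1033 and 1005 CPM after APAP. Its treated and control livers were apart in each model, by 1.99-fold (adjusted p = 0.0273) and 1.88-fold (adjusted p = 1.5e-04). Set against procoagulants of the same pathway, the ratio of F2 to Serpinc1 was 1.25 and 1.23 in PBS livers and 1.57 and 1.44 after TAA, and 0.914 and 0.905 in fasted PBS livers and 1.12 and 1.06 after APAP. The treated livers were higher in both models. The ratio of F10 to Proc stayed between 0.92 and 1.06 in all PBS, TAA and fasted PBS livers and was 0.683 and 0.768 after APAP.

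Serpina10 overlapped between PBS and TAA livers (log2 fold change 0.33, adjusted p = 0.493) and fell by 0.63 after APAP (adjusted p = 0.00607). Serpina5, the protein C inhibitor, was scarce. It had 14 and 0 counts in the PBS libraries and 128 and 36 after TAA (adjusted p = 0.104), and 5 and 4 counts in the fasted PBS libraries against 17 and 15 after APAP (adjusted p = 0.0380), and the last call was lost whichever of the 4 livers was left out. Of the 5 calls in this group after TAA, 2 held without PBS replicate 1 (Proz and Serpind1) and 1 without PBS replicate 2 (Proz). The adjusted p of Serpinc1 was then 0.101 and 0.167, and that of Serpind1 was 0.0572 without PBS replicate 2. Serpinc1 was also not called without TAA replicate 1 (adjusted p = 0.0641).

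Upstream of F13b and Proz, which fell in both models whichever liver was left out, the HNF1 core GTTAAT is given in capitals, on either strand. The windows are chr1:139501457-139501701 (plus strand) and chr8:13060658-13060907 (plus strand) of GRCm38.p6.
F13b: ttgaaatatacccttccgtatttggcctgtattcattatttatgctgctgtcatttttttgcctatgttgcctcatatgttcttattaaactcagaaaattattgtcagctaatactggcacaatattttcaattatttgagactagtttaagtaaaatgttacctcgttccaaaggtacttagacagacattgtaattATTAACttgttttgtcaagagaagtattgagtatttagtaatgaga
Proz: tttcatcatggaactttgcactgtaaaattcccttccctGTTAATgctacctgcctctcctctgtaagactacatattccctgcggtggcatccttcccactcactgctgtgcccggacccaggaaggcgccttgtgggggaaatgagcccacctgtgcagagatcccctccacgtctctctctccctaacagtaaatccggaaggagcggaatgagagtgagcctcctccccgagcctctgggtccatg
The match began 51 bases before the RefSeq start site of F13b and 211 bases before that of Proz. The other genes with such a match were Fga, Fgb and Tfpi2, of which Fga and Fgb rose and Tfpi2 fell in both models.

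Among the fibrinolysis genes, the zymogen Plg fell and the receptor gene Plaur rose in both models. Plg, plasminogen, had 2735 and 3063 CPM in PBS livers and 1431 and 1299 CPM after TAA, and 2308 and 2294 CPM in fasted PBS livers against 1014 and 968 CPM after APAP. The groups were well apart, and the log2 fold changes were -1.09 (standard error 0.22, adjusted p = 0.0202) and -1.22 (standard error 0.12, adjusted p = 2.4e-05). Plaur, the receptor that holds urokinase on cells, had 2.06 and 1.99 CPM in PBS livers and 32.4 and 29.9 CPM after TAA, and 0.162 and 0.554 CPM in fasted PBS livers against 8.62 and 6.82 CPM after APAP. It was 15.4-fold higher after TAA (adjusted p = 0.00167) and 21.8-fold higher after APAP (adjusted p = 1.8e-05), and both calls held whichever liver was left out. The fasted PBS libraries held only 4 and 12 counts of it, and the log2 fold change after APAP, 4.45, was 3.77 without fasted PBS replicate 1 and 5.48 without fasted PBS replicate 2. Plaur is also made by neutrophils. Of 13 neutrophil markers, TAA raised 5 and lowered 5 of 12 tested (12.1% and 13.8% over all genes). APAP raised all 7 markers that were tested (28.6% over all genes). Their summed level was 85.7 to 116 CPM in PBS livers, 101 to 121 CPM after TAA, 2.92 to 3.69 CPM in fasted PBS livers and 23.8 to 24.3 CPM after APAP, with Ly6g, Retnlg, Camp and Mpo at 0 in both fasted PBS livers and Elane and Mpo at 0 in both after APAP. Their part in the rise of Plaur was not tested. Plau, urokinase itself, was 2.80-fold higher after APAP, with 80 and 71 counts against 20 and 28 (adjusted p = 0.00566), and had 263 and 191 counts after TAA against 168 and 84 (adjusted p = 0.190). The Plau call after APAP was lost without APAP replicate 1 (adjusted p = 0.0531).

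Plat, tissue plasminogen activator, had 32 and 2 counts in the PBS libraries and 188 and 259 after TAA, and 14 and 26 counts in the fasted PBS libraries against 45 and 62 after APAP. The treated libraries were higher in both models (adjusted p = 0.0450 and 0.0337). The log2 fold change of 3.66 after TAA rested on the 2 unequal controls. It was 6.65 (adjusted p = 0.0300) without PBS replicate 1 and 2.76 (adjusted p = 0.0525) without PBS replicate 2, and Plat was not called without TAA replicate 1 or 2 (adjusted p = 0.143 and 0.184). After APAP its call was lost without fasted PBS replicate 1, where the log2 fold change was 0.76 (adjusted p = 0.179), and without APAP replicate 1 or 2 (adjusted p = 0.0754 and 0.166).

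Of the inhibitors of fibrinolysis made by the liver, Serpinf2, antiplasmin, fell after APAP but was not called after TAA. It had 833 and 1037 CPM in PBS livers and 718 and 648 CPM after TAA (adjusted p = 0.172), and 758 and 784 CPM in fasted PBS livers against 277 and 321 CPM after APAP (2.58-fold lower, adjusted p = 1.4e-05). The effects differed by 0.88 (standard error 0.24, adjusted p = 0.0471), a call that was lost without PBS replicate 1 or any of the 4 fasted livers, with adjusted p from 0.100 to 0.191. Plg counts were 3.28 and 2.95 times those of Serpinf2 in PBS livers and 1.99 and 2.00 times after TAA, but 3.05 and 2.93 times in fasted PBS livers and 3.66 and 3.01 times after APAP. Cpb2, whose product TAFI removes the lysines that plasminogen binds on fibrin, had a log2 fold change of -0.31 (adjusted p = 0.408) after TAA and fell by 0.73 (adjusted p = 8.98e-04) after APAP. Hrg, histidine-rich glycoprotein, a plasma protein that binds plasminogen, fell by 1.23 (adjusted p = 0.0186) and by 0.89 (adjusted p = 2.2e-04). Plg and Hrg were not called after TAA without either PBS replicate, with adjusted p of 0.0986 and 0.146 for Plg and of 0.0915 and 0.128 for Hrg.

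Among 9 genes of tissue factor, of the vessel wall and of blood cells, TAA raised 2 and lowered 2 (12.1% and 13.8% over all genes). APAP raised 3 and lowered 3 (28.6% and 27.5% over all genes), a share near that of all genes tested. Thbd, thrombomodulin, the receptor that turns thrombin towards activating protein C, had 3.32 and 2.55 CPM in PBS livers and 23.7 and 39.2 CPM after TAA, and 2.88 and 4.34 CPM in fasted PBS livers against 27.3 and 22.7 CPM after APAP. It was 10.7-fold higher after TAA (adjusted p = 0.00378) and 6.97-fold higher after APAP (adjusted p = 3.2e-06), and both calls held whichever liver was left out. Procr, the endothelial receptor of protein C, had 3.32 and 2.12 CPM in PBS livers and 11.9 and 10.1 CPM after TAA, and 0.528 and 0.415 CPM in fasted PBS livers against 3.82 and 2.35 CPM after APAP. It was 4.04-fold higher after TAA (adjusted p = 0.00932, or 0.0612 without PBS replicate 2) and 6.44-fold higher after APAP (adjusted p = 3.99e-04). The mRNA of Thbd and Procr thus rose in the same livers in which that of Proc and Pros1 fell.

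F13a1, the catalytic chain of factor XIII, had 150 and 44 counts in the PBS libraries and 956 and 358 after TAA, and 8 and 2 counts in the fasted PBS libraries against 598 and 585 after APAP. Treated libraries were above their controls, and the log2 fold changes were 2.70 (standard error 0.73, adjusted p = 0.0515) and 6.70 (standard error 0.31, adjusted p = 1.9e-07). This was the widest change of the 37 genes after APAP, about 104-fold, and it ran opposite to F13b. With so few control counts its size rested on single libraries, and the log2 fold change was 7.87 without fasted PBS replicate 1 and 6.07 without fasted PBS replicate 2. The difference between the models was -4.05 (standard error 1.18, adjusted p = 0.0795) and did not pass the threshold. Of the macrophage markers, TAA raised 3 and lowered 4 of 12 tested (12.1% and 13.8% over all genes). APAP raised 3 and lowered 2 of 11 markers (28.6% and 27.5% over all genes). Their summed level was 721 to 837 CPM in PBS livers, 605 to 675 CPM after TAA, 110.5 to 224 CPM in fasted PBS livers and 84.5 to 106 CPM after APAP. Among them Gpnmb was at 0 in both fasted PBS livers. Their part in the change of F13a1 was not tested.

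Tfpi2, an inhibitor of tissue factor and plasmin related to Tfpi, had 43.7 and 49.2 CPM in PBS livers and 29.5 and 21.3 CPM after TAA, and 61.6 and 63.2 CPM in fasted PBS livers against 10.2 and 16.8 CPM after APAP. It fell by 0.87 (adjusted p = 0.0293) and by 2.20 (adjusted p = 2.9e-04) on the log2 scale. The 2 effects differed by 1.30 (standard error 0.33, adjusted p = 0.0418), a call that held without TAA replicate 2 or APAP replicate 2 and was lost without any of the other 6 livers, with adjusted p from 0.0626 to 0.125. Tfpi itself was not called after TAA (adjusted p = 0.267) and fell by 0.76 after APAP (adjusted p = 0.0471, or 0.180 without fasted PBS replicate 2, 0.200 without APAP replicate 1 and 0.0691 without APAP replicate 2). F2r, the thrombin receptor PAR1, fell by 0.88 (adjusted p = 0.0364) and by 0.84 (adjusted p = 4.1e-04). The TAA calls of Tfpi2 and F2r were lost without either PBS replicate, with adjusted p from 0.105 to 0.170. The call of F2r was also lost without TAA replicate 1 (adjusted p = 0.0842) and that of Tfpi2 without TAA replicate 2 (adjusted p = 0.0647).

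F3, which encodes tissue factor, was not called in either model. It had 9.93 and 11.5 CPM in PBS livers and 7.59 and 17.9 CPM after TAA (adjusted p = 0.688), and 3.08 and 2.26 CPM in fasted PBS livers against 3.90 and 3.45 CPM after APAP (adjusted p = 0.195). Its TAA livers lay on either side of the controls, and its direction turned with the liver left out. Vwf, von Willebrand factor, which tethers platelets, had log2 fold changes of 0.74 (adjusted p = 0.290) and 0.47 (adjusted p = 0.0818). F8, factor VIII, had -1.14 (adjusted p = 0.0633) and -0.40 (adjusted p = 0.0927). Of 12 endothelial markers, TAA raised 2 and lowered 2 (12.1% and 13.8% over all genes). APAP raised 4 and lowered 3 (28.6% and 27.5% over all genes), so these counts were near the shares of all genes. The endothelial sum ran from 258 to 341 CPM in PBS livers, 232 to 311 CPM after TAA, 243 to 269 CPM in fasted PBS livers and 273 to 282 CPM after APAP. All 12 had counts in every liver, and the PBS and TAA sums overlapped. Their part in the rise of Thbd and Procr was not tested.

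Upstream of Plaur and Procr, which rose in both models, the AP-1 site TGANTCA is given in capitals. The windows are chr7:24462233-24462482 (plus strand) and chr2:155750967-155751116 (plus strand) of GRCm38.p6.
Plaur: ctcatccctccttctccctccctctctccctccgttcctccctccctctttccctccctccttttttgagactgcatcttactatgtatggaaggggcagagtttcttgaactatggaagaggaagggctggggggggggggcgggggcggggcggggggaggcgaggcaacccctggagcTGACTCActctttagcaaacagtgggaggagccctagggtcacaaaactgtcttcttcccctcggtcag
Procr: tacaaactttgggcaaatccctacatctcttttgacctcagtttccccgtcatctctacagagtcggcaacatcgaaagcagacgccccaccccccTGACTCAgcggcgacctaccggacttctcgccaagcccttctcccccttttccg
The site began 69 bases before the RefSeq start site of Plaur and 154 bases before that of Procr. The other genes with the site were F2, Fgb, F3, Tfpi2, F2r and Hrg. Of these, Fgb rose in both models and Tfpi2, F2r and Hrg fell in both, while F2 was called lower after APAP alone and F3 in neither.

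Across the 2 models the calls overlapped widely. Of the 37 genes, 7 were higher in both (Fga, Fgb, Fgg, Plat, Plaur, Thbd and Procr) and 16 were lower in both. A further 9 were called after APAP alone, 3 higher (Serpina5, Plau and F13a1) and 6 lower (F2, Kng1, Serpina10, Serpinf2, Cpb2 and Tfpi), and F12, Kng2, F3, Vwf and F8 were called in neither. No gene was called after TAA alone or in opposite directions. The log2 fold changes of the 2 models, which share no liver, had the same sign in 35 of 37 genes. Pearson's r was 0.86 and Spearman's rho 0.86 across genes, which are not independent replicates. Over all genes tested, 25.8% were called after TAA and 56.2% after APAP. Overlap and agreement over all genes were not computed, so whether these values are particular to the 37 genes is unknown. A call after APAP alone does not show that the models differ. The fit of all 8 livers called a difference in 4 of the 37 (F11, Serpind1, Serpinf2 and Tfpi2). Of 17381 genes, 4.63% had a higher fold change after TAA than after APAP and 6.37% a lower one (11% in either direction). F11, Serpind1, Serpinf2 and Tfpi2 all had the higher fold change after TAA, since they fell further after APAP.

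**Figure D4:**
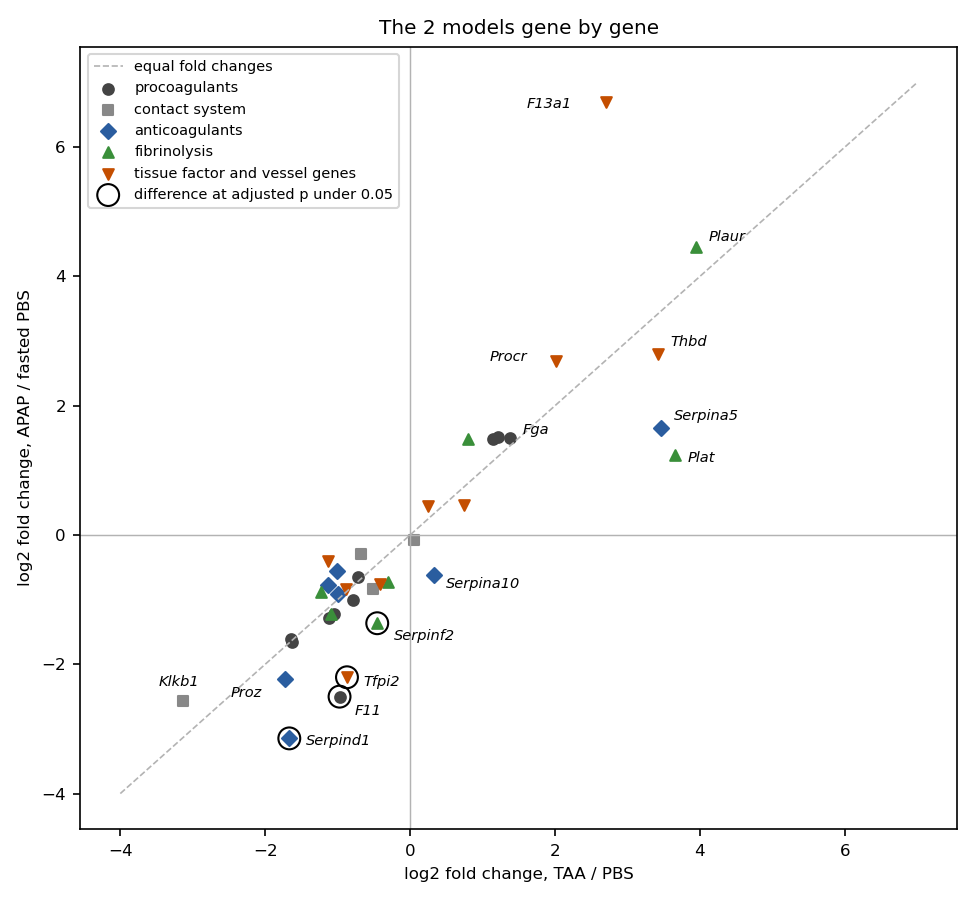
Log2 fold change of each of the 37 genes after TAA (horizontal) against that after APAP (vertical), with symbols by role, the dashed line of equal change and circles around the 4 genes whose effects differed at an adjusted p under 0.05. The circled genes, F11, Serpind1, Serpinf2 and Tfpi2, lie below the line.

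Other genes of the pathway were read from a list of 28, of which 27 were tested after TAA and 24 after APAP. TAA raised 2 of these (Anxa2 and S100a10) and lowered 9, and APAP raised 6 and lowered 10. Over all genes, 12.1% rose and 13.8% fell after TAA, and 28.6% rose and 27.5% fell after APAP. In both models the share of the list that rose was a little below that of all genes, and the share that fell was above it. Anxa2 and S100a10, whose products form a cell surface receptor of plasminogen, rose by 3.36 and by 2.04 after TAA and by 2.01 and by 2.53 after APAP (adjusted p at most 0.00336). Plgrkt, another receptor of plasminogen, went the other way after TAA, with 19.9 and 14.4 CPM in PBS livers and 6.23 and 4.45 CPM after TAA (3.21-fold lower, adjusted p = 0.0118, or 0.0744 and 0.0541 without PBS replicate 1 or 2), and had a log2 fold change of -0.54 after APAP (adjusted p = 0.0983). Serping1, the inhibitor of plasma kallikrein and factor XII, fell by 0.88 after TAA (adjusted p = 0.0456, or 0.210, 0.158 and 0.108 when PBS replicate 1, PBS replicate 2 or TAA replicate 2 was left out) and by 0.64 after APAP (adjusted p = 0.00103). Ggcx, the carboxylase that vitamin K-dependent factors need, fell by 0.77 (adjusted p = 0.0372, or 0.136, 0.191 and 0.0864 when the same livers were left out) and by 1.23 (adjusted p = 1.2e-05). Adamts13, the protease that trims von Willebrand factor, fell by 2.06 after TAA (adjusted p = 0.00993, or 0.0720 without PBS replicate 2) and had a log2 fold change of -0.45 after APAP (adjusted p = 0.189).

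Of 14 regulators tested, TAA raised 3 and lowered 3 (12.1% and 13.8% over all genes), and APAP raised 5 and lowered 4. The APAP shares were near the 28.6% and 27.5% over all genes. Socs3, a target and brake of interleukin-6 signalling, had 30.5 and 24.7 CPM in PBS livers and 187 and 162 CPM after TAA, and 9.01 and 12.4 CPM in fasted PBS livers against 105 and 83.1 CPM after APAP (adjusted p = 0.00279 and 4.0e-06). Stat3, the transcription factor of that pathway, rose by 1.09 after APAP (adjusted p = 3.7e-05) and had a log2 fold change of 0.63 after TAA (adjusted p = 0.119). Il6ra, the receptor of interleukin-6, went the other way after APAP, with a log2 fold change of -1.30, and stood at -0.26 after TAA. Il6 was filtered out in both, with at most 26 counts in a liver. Cebpa, a transcription factor of hepatocyte genes, fell by 1.73 (adjusted p = 0.00515) and by 0.98 (adjusted p = 5.2e-05). Klf4, a transcription factor that in endothelial cells raises thrombomodulin, rose by 4.02 (adjusted p = 0.00475) and by 2.66 (adjusted p = 5.8e-05).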

How the data were processed

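RNA of 8 livers was sequenced by the authors, and no further columns of samples were left over (0). The submitters' processing notes name GRCm38 (mm10) as the genome and featureCounts, HISAT2 and Trim Galore as tools. Tool versions are not given in the sources used here. The authors deposited whole-number counts per gene for PBS and TAA livers. For the fasted livers they deposited estimated counts, of which 27.0% to 29.7% of nonzero values were not whole. These were rounded, although whole counts had been assumed for both tables, and which step made the fractions is not given. Assembled loci that name no gene (548) took up 0.457% and 0.498% of the deposited totals of fasted PBS livers and 2.43% and 2.46% of those after APAP. They entered neither library sizes nor tests. Matching used the gene ID, because 27 gene names in the TAA table were dates. Replicates of a group were not copies of one library (chi-square per degree of freedom of 21.4 or more).

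TAA was tested against PBS and APAP against fasted PBS in edgeR 4.0.16 under R 4.3.3 (TMM, filterByExpr with minimum count 10 and minimum total 15, robust quasi-likelihood test, Benjamini-Hochberg adjustment over all genes tested). The difference between treatment effects was fitted on all 8 livers. Standard errors were derived from the F statistic (size of the log2 fold change over the root of F) and are approximate. The test was tried on simulated counts, in which far fewer genes were changed than were called in the data. There the share of false calls among the calls was above the adjusted threshold in all 3 comparisons. It was highest for TAA and lowest for the difference. That share depends on how many genes change, so its size among the calls reported here is not known. RPKM used exon lengths of GENCODE M21, which may not be the annotation of the authors. Printed upstream windows of 250 bases were ended where a GENCODE gene begins. Across genes, the deviations of treated and control livers with the same replicate number correlated at 0.066 (TAA) and 0.057 (APAP). Too few livers were sequenced for these values to decide whether same-numbered livers belong together. DESeq2 1.42.0 served as an alternative, and figures were drawn with matplotlib 3.10.9 in Python 3.11.15.

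All 37 genes could be named, with values by liver for those called in both comparisons or in the difference and for the widest change of each role. Of the lists of other pathway genes and regulators, those called in both comparisons, or up to 4 per comparison by size of change, could be named; Il6 was named outside this rule after its values were seen. Results for 1 gene of the pathway list are not reported here. The members, role groups, lists and settings were chosen with earlier results of these data known.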

Additional observations from a re-analysis of the deposited data

Results flagged for a closer look

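For 9 of the genes that could be named, the effect of TAA and the effect of APAP differed in the fit of all 8 livers. Over all 17381 genes, 11% differed, and the 4 of the 37 clotting genes were near that share. The genes of the other lists could be named only because they were called in these data. The count of 9 therefore does not measure how often effects differed. Fgl2, Foxa1 and Foxa2 of the lists were called too but were outside the naming rule. The values are log2 fold changes after TAA minus those after APAP, with edgeR's adjusted p. Of the clotting genes, F11 differed by 1.50 (adjusted p = 0.00522), Serpind1 by 1.45 (adjusted p = 0.00898), Tfpi2 by 1.30 (adjusted p = 0.0418) and Serpinf2 by 0.88 (adjusted p = 0.0471). F11, Serpind1 and Tfpi2 were called lower in both models, and Serpinf2 after APAP alone (adjusted p = 0.172 after TAA). Anxa2, part of a receptor of plasminogen, differed by 1.31 (adjusted p = 0.0258), rising by 3.36 after TAA and by 2.01 after APAP. Adamts13 differed by -1.64 (adjusted p = 0.0301), with a log2 fold change of -2.06 in the TAA model and of -0.45 in the APAP model. Cebpa differed by -0.78 (adjusted p = 0.0395), falling by 1.73 after TAA and by 0.98 after APAP. Il6ra, the receptor of interleukin-6, differed by 1.02 (adjusted p = 0.0469), at -0.26 for TAA and -1.30 for APAP. Egr1, an immediate early transcription factor, differed by 3.53 (adjusted p = 0.0342), with 30.8 and 37.8 CPM in PBS livers and 662 and 1176 CPM after TAA, and 67.2 and 170 CPM in fasted PBS livers and 357 and 180 CPM after APAP. Each of these last 5 calls was lost in several of the fits that left out 1 liver, with an adjusted p of up to 0.100 for Anxa2, 0.105 for Adamts13, 0.156 for Cebpa, 0.163 for Il6ra and 0.114 for Egr1. The lost calls came without PBS replicate 2, without fasted PBS replicate 2 and without either APAP replicate for all 5, and without further livers for some.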

How the results depend on the processing

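The calls after TAA depended on the 2 PBS livers. Leaving out each liver in turn gave 2 to 6 members higher and 3 to 15 lower after TAA, 7 to 9 higher and 21 to 22 lower after APAP, and 1 to 5 higher and 0 to 1 lower in the difference. Without PBS replicates 1 and 2, TAA calls over all genes were 1126 and 737 instead of 4348, and without TAA replicates 1 and 2 they were 3220 and 3275. The cause was not tested. Of 23 member calls after TAA, 5 held whichever liver was left out (F13b, Klkb1, Proz, Plaur and Thbd), as did 28 of 32 after APAP and 1 of 4 in the difference (F11). Over all genes the difference had 698 to 2487 calls instead of 1913. With the replicate number as a block, 8 members were higher and 18 lower after TAA, 9 and 22 after APAP, and 2 and 1 in the difference. DESeq2's Wald test gave 1 lower member in the difference (F13a1). With a log2 fold change beyond 1, 12 members were lower after APAP. Scaling by library totals alone moved the median of all genes by 0.21 (TAA) and 0.18 (APAP), and the share of calls that were higher from 46.7% to 63.3% and from 51.0% to 61.9%. Relative to that shift the members gave 8 higher and 13 lower after TAA (F9, Tfpi2 and F2r lost), 11 and 21 after APAP (Tfpi lost), and Kng2 after APAP turned to 0.10. Signs that turned when 1 liver was left out belonged to values that had not been called. The ranges given here span all alternative settings, not only the fits that left out 1 liver. After TAA the range was -0.50 to 0.033 for Il6ra, -0.25 to 0.30 for Kng2, -0.14 to 0.69 for Serpina10 and -0.50 to 0.74 for F3. For Onecut1 after APAP it was -1.26 to 0.39. For the difference it was -0.37 to 0.20 for Fga, -0.53 to 0.0067 for Fgb and -0.65 to 0.037 for Fgg. Other members changed sign in the difference too, but ranges were kept there only for the fibrinogen genes and for genes that had been called. Counts ran from 0 to 128 in a library for Serpina5 and from 2 to 259 for Plat, and counting error is wide at the low end.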
